A study of Mus musculus with 16 samples.

Results

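The genes described here are 34 mouse genes of glucose metabolism and of the response to low oxygen: glucose transporters, glycolytic enzymes, the lactate dehydrogenase subunits, 13 genes known as targets of hypoxia-inducible factors, and Txnip. They were taken from a list of names, 20 of them transporters and enzymes and 14 of them hypoxia-response genes with Txnip. The list was written with earlier results of these data known, and the part of that choice in the counts below was not tested. Of the 34 genes, 32 had a probe set that names a single gene, among 30102 such genes on the array, and all 32 passed the filter on dim signals. The other two, Eno1 and Gpi1, were not analysed here. The data are 16 Affymetrix arrays: 8 lines of embryonic stem cells (ESCs), each with 1 array in either of 2 conditions.

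All lines were male 129SV ESCs. EBRTcH3 was the wild type and carried no vector. The other 7 lines were EBRTcH3 derivatives in which all isoforms of Mbd3 had been knocked out and into which a vector was stably introduced. MBD3 is a subunit of the NuRD complex, which remodels nucleosomes and removes histone acetylation. One vector was empty. Another 3 held the isoforms MBD3a, MBD3b or MBD3c, and the last 3 held MBD3a with a deletion: of the methyl-CpG-binding domain (the MBD-deleted line), of the coiled coil (the coiled-coil-deleted line), or of both (the doubly deleted line). Cells were grown with leukaemia inhibitory factor (LIF), which keeps mouse ESCs self-renewing, or kept out of it for 12 days. The 5 lines whose MBD3 has the coiled coil, which are the wild type, the 3 isoform lines and the MBD-deleted line, are called retaining. The other 3, with the empty vector or a construct that lost the coiled coil, are called lacking. No label names a second culture of a line, so lines were the replicates of a class, and each line is one derivation. The sources used here give neither the promoter of the vectors, nor whether a line is a clone, nor the oxygen level of the cultures.

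In glycolysis, glucose enters through transporters, is phosphorylated and split in a preparatory phase, and is turned into pyruvate in a pay-off phase that yields ATP. Lactate dehydrogenase can then reduce pyruvate to lactate. When oxygen is low, prolyl hydroxylases no longer mark the alpha subunits of hypoxia-inducible factors for degradation, and these factors, paired with ARNT, raise transcription of many glycolytic genes and of genes for mitophagy and collagen processing. Txnip encodes an arrestin-like protein that restrains glucose uptake, and its own transcription follows glucose-phosphate levels through MondoA and ChREBP. Mouse ESCs use both glycolysis and respiration, and the balance is known to shift as they leave the naive state.

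Values are log2 signals, and array medians lay between 4.72 and 4.85. Mbd3 signal was lowest in the empty vector line, at 7 with LIF and 7.45 without, and between 8.45 and 9.59 on the other 14 arrays. The probe set does not separate the constructs. Pluripotency markers (10 genes) had a mean signal of 11.16 to 11.51 with LIF in the retaining and 11.32 to 11.47 in the lacking lines, so the labelled cell type was matched. Without LIF these means were 9.99 to 10.39 and 10.76 to 10.92. Trophoblast markers moved with the classes: the mean of the 9 measured of 10 was 6.26 to 6.79 in retaining and 6.81 to 7.26 in lacking lines with LIF, and 8.31 to 9.51 and 7.65 to 7.89 without it. On every array all 9 passed the 40th percentile used as the filter, which does not show a signal clear of background. In the retaining lines 7 of the 9 rose and 1, Tfap2c, fell, against 21.3% and 14.5% of all tested genes. Krt18 rose most, by 4.76 ± 0.19 (log2, SE; limma adjusted p = 4.11e-08) in the retaining lines. The response was lower in the lacking lines for 6 of the 9 and higher for 2, Tfap2c and Elf5, against 7.9% and 4.17% of all tested genes. Fibroblast markers (9 measured of 10) had means of 4.99 to 5.77, not far above the array medians. On an array 6 to 8 of them passed the 40th percentile. Of the 7 tested, 4 rose and 0 fell in the retaining lines, against 21.3% and 14.5% of all tested genes. Markers of other lineages also moved with the classes. Mesoderm markers (9 measured of 10) had means of 6.29 to 6.4 in retaining and 6.75 to 6.9 in lacking lines with LIF, and 6.61 to 7.61 and 6.8 to 6.97 without it. Neuroectoderm markers (10) had means of 6.63 to 6.81 and 6.4 to 6.56 with LIF, and 6.7 to 6.9 and 6.44 to 6.5 without it. Endoderm markers (10) had means of 5.38 to 5.95 in all groups. In the retaining lines Mixl1 of the mesoderm list rose by 2.59 ± 0.28 (adjusted p = 3.76e-05), Dab2 of the endoderm list by 2.7 ± 0.13 (adjusted p = 1.27e-07) and Nes of the neuroectoderm list by 1.9 ± 0.15 (adjusted p = 4.35e-06). Each was the largest change of its list, and other listed genes fell: Bmp4 (mesoderm), Sox7 and Gata4 (endoderm), Pax6, Sox1 and Tubb3 (neuroectoderm). Of 9 tested mesoderm genes 4 rose and 1 fell, and of 8 endoderm genes 3 and 2. Of 10 neuroectoderm genes 3 rose and 3 fell, against 21.3% and 14.5% of all tested genes. The responses of Mixl1, Dab2 and Nes differed between the classes, at adjusted p of 0.00985, 0.000211 and 0.00192. The part of these cell type changes in the results that follow was not tested. In RNA from whole cultures, fewer cells of a type and less RNA per cell cannot be told apart.

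On LIF withdrawal most of these genes passed as higher in the retaining lines, and few passed in the lacking lines. In the retaining lines 20 of the 32 genes rose and 4 fell (Pfkp, Vegfa, Kdm3a, Txnip), where 21.3% of all 22872 tested genes rose and 14.5% fell (35.8% in either direction) at a limma adjusted p under 0.05. Because the genes were chosen with earlier results known, these shares are set side by side only as a description. The median change of the 32 genes was 0.57 on the log2 scale, against 0.04 for all tested genes. The split over all genes depends on scaling: 4870 rose and 3311 fell as deposited, 3711 and 5138 with arrays centred on their median, and 4123 and 4572 after another quantile normalization. Centring moved the all-gene median from 0.038 to -0.064. It left 18 of the 32 genes higher and 5 lower. In the lacking lines 1 gene rose (Ldhb) and 2 fell (Hk2, Txnip), where 1.71% and 1.22% of all genes did (2.93% in either direction), and the median of the 32 was 0.03. The count of 1 higher is near the share of all genes and is no result about these genes. A gene that did not pass in the lacking lines may still have risen there. Pfkm, Pfkfb3, Tpi1, Pkm and Ndrg1 were higher without LIF in all 8 lines.

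The difference between the responses was itself tested. It passed for 13 genes: 12 had a lower response in the lacking lines and 1, Kdm3a, a higher one, against 7.9% and 4.17% of all tested genes (12.1% in either direction). All 3 lacking responses lay below all 5 retaining responses for 11 of the 32 genes and above them for 1, against 11.5% and 6.82% of all tested genes. The 12 genes with a lower response were Slc2a1, Pfkl, Pfkm, Pfkfb3, Aldoc, Pgk1, Pkm, Ldha, Bnip3, Ankrd37, Egln1 and Egln3. Over all genes 953 differences were higher and 1806 lower as deposited, 1295 and 1408 after centring, and 1364 and 1592 after quantile normalization. The count of 12 lower was 5 without the doubly deleted line, 6 without the MBD3b line and 16 without the MBD-deleted line. It was 7 without the coiled-coil-deleted line, with Txnip, not one of the 12, among them. Slc2a1, Pfkm, Pfkfb3, Aldoc, Egln1 and Kdm3a passed whichever line was left out.

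**Figure D1:**
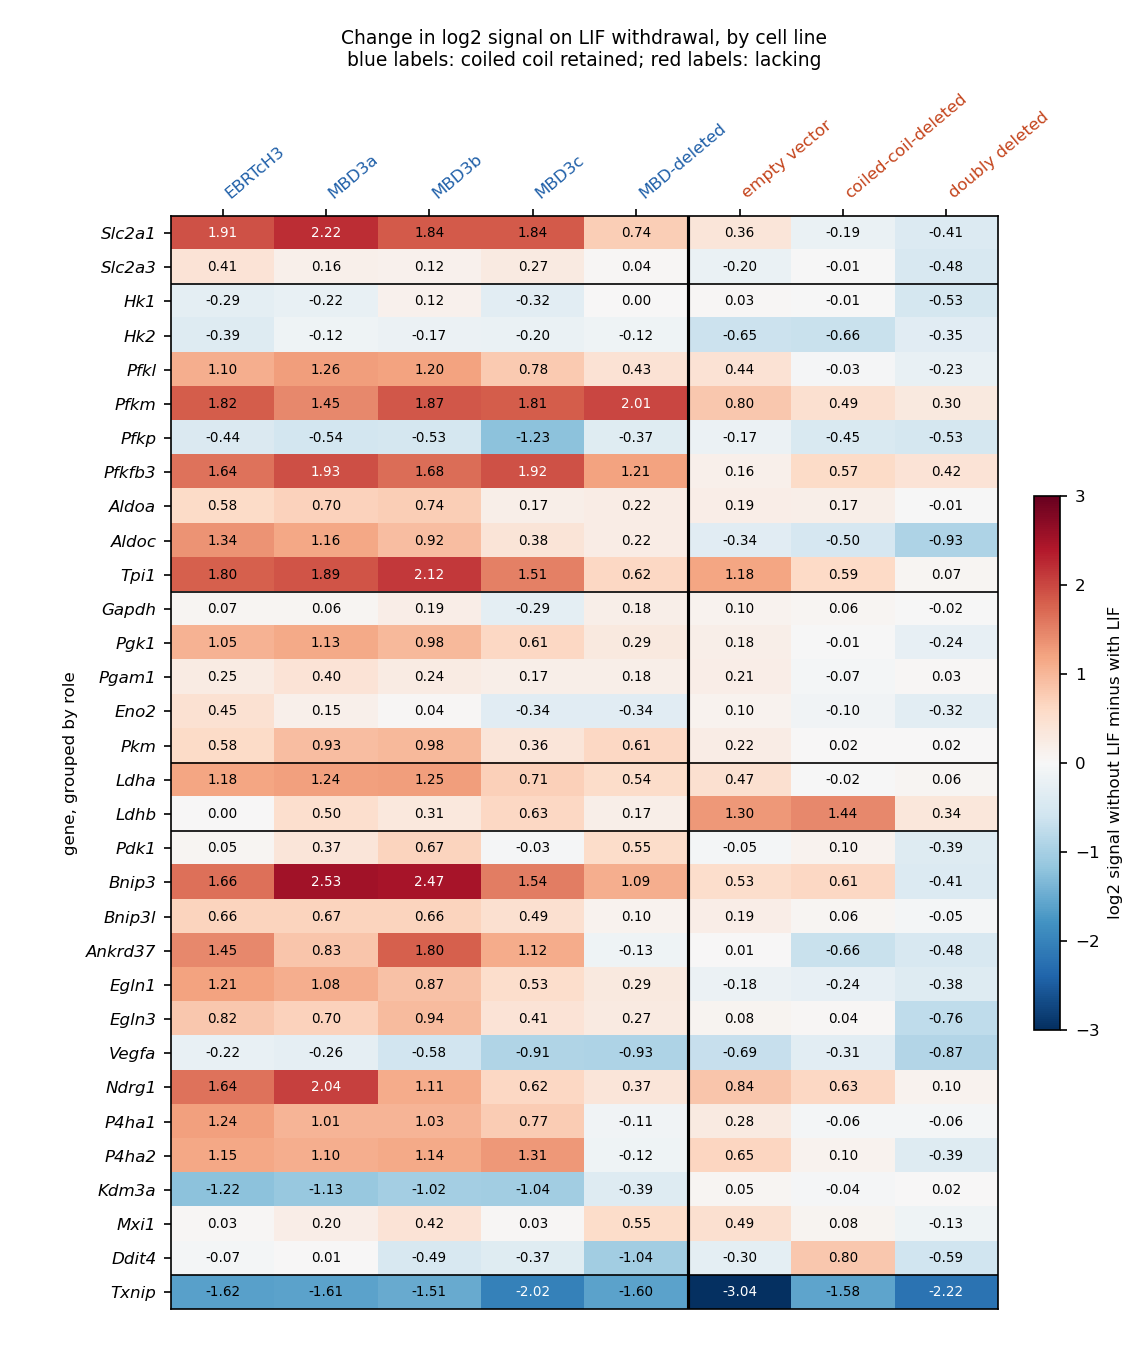
Change in log2 signal of the 32 genes on LIF withdrawal (rows, grouped by role) in each of the 8 lines (columns), with the value in each cell and colour from -3 to 3. Retaining lines stand left of the black line and lacking lines right of it; Slc2a1 ranges from 0.74 to 2.22 on the left and from -0.41 to 0.36 on the right, and Txnip is below 0 in all 8 lines.

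Lines of a class were not alike. The median response of the 32 genes was 0.62 in the wild type, 0.7, 0.8 and 0.4 in the MBD3a, MBD3b and MBD3c lines, and 0.2 in the MBD-deleted line, and 0.17, -0.01 and -0.28 in the empty vector, coiled-coil-deleted and doubly deleted lines. The median over all tested genes stayed between -0.07 and 0.12 in these lines. At least a doubling was seen for 14, 13, 11, 7 and 3 of the 32 genes in the retaining lines in that order, and for 2, 1 and 0 in the lacking lines. The share of all tested genes that doubled was not counted, so these counts are a description only. The median absolute response over all tested genes was 0.23 to 0.28 in the retaining lines and 0.14 to 0.2 in the lacking lines. MBD-deleted had the smallest response of the 5 retaining lines for 15 of the 20 genes that rose. How often it did so among all tested genes that rose was not counted, so a trait of these genes is not shown. The labels number the titles in 2 runs, 1 to 10 and 15 to 20, and the 3 lines of the second run are MBD-deleted, coiled-coil-deleted and doubly deleted. What the runs were is not stated. Taken over all 8 lines, 15 of the 32 genes rose and 5 fell, against 15.1% and 9.89% of all tested genes (25.0% in either direction). The sign was the same in all 8 lines for 5 genes that were higher without LIF (Pfkm, Pfkfb3, Tpi1, Pkm, Ndrg1) and 4 that were lower (Hk2, Pfkp, Vegfa, Txnip), against 7.9% and 5.49% of all tested genes. With the run as a covariate 7 of the 12 kept a lower response in the lacking lines (Slc2a1, Pfkl, Pfkm, Pfkfb3, Aldoc, Bnip3, Egln1), and Kdm3a kept a higher one. Within the first run the lacking class is the empty vector line alone, assumed to vary like the 4 retaining lines, so p-values there hold no spread between lacking lines. There Slc2a1, Pfkfb3 and Kdm3a kept their calls, the other 10 were lost, and Txnip passed with a lower response (-1.35; adjusted p = 0.0287). Within the second, with 1 retaining and 2 lacking lines, none of the 22125 genes tested with limma passed for this difference, and 2644 had an unadjusted p under 0.05.

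Before the values, 5 promoters are shown, chosen because their genes carry the main results: 4 hypoxia targets of different roles that rose in the retaining lines, and Txnip, which fell. RefSeq promoter windows of GRCm38.p6, 250 bases before to 50 after a start site, were held for 31 of the 34 genes (49 windows). Each sequence below is the 250 bases before the start, 5′ to 3′ on the gene's strand. For Ldha the window printed is the one with more matches to the hypoxia cores, 7 over its 300 bases against 2 in the other window. Capitals mark ACGTG or GCGTG on either strand, the cores of hypoxia response elements, and in Txnip also a paired E-box of the carbohydrate response element kind, which is CACGNG followed by CACGNG after 5 bases.
Slc2a1 (chr4:119108495-119108744, plus strand): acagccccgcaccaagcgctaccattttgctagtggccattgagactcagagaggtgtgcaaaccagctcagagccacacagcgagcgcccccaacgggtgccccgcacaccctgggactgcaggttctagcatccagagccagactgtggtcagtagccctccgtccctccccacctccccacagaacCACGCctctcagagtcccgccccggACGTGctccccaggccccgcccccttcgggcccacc
Ldha (first of 2 windows, chr7:46845554-46845803, plus strand): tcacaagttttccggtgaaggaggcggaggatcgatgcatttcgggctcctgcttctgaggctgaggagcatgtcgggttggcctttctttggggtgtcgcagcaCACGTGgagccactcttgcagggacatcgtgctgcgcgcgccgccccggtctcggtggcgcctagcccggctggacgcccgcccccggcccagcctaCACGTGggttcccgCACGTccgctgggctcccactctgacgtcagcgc
Bnip3 (chr7:138909507-138909756, minus strand): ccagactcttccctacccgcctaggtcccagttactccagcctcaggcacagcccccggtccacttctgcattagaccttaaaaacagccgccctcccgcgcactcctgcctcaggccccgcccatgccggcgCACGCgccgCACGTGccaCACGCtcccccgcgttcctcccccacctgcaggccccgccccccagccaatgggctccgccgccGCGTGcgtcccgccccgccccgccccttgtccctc
Ankrd37 (chr8:45999851-46000100, minus strand): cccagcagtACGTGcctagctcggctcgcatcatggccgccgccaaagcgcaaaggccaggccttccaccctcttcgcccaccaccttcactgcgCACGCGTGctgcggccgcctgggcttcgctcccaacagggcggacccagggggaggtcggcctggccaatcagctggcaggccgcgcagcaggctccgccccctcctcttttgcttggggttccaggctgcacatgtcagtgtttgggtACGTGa
Txnip (chr3:96557707-96557956, plus strand): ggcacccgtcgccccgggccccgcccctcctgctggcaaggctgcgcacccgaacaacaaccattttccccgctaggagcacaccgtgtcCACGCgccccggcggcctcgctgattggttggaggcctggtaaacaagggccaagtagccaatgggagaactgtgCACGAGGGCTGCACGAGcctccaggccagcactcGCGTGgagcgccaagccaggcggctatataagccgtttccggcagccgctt

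ACGTG was found on either strand in 51.0% of the 49 windows of these genes and in 19.6% of all 32841 windows, and GCGTG in 55.1% and 32.4%. At least one of the pair was in 75.5% and 43.8%. The windows of these genes also had a higher share of G and C, with a median of 62.3% against 52.7% over all windows. CACGTG, which holds ACGTG on both strands, was in 8.2% and 7.2%. The paired E-box of Txnip begins at position -85 from the start site, and the same pattern was in 16 of the 32841 windows. Windows with and without a match held genes that rose: Tpi1, which rose, has none of these letters in its window. The same held for genes that did not rise: Pfkp, which fell, has 4 cores, Gapdh 3 and Eno2 0. A match is a description of letters and not of binding.

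Slc2a1, which encodes the glucose transporter GLUT1, rose in the retaining lines. Line values are given from here on in a fixed order: wild type, MBD3a, MBD3b, MBD3c and MBD-deleted for the retaining lines, and empty vector, coiled-coil-deleted and doubly deleted for the lacking lines. The Slc2a1 signal with LIF was 10.97, 10.64, 10.69, 10.73 and 11.35 in the retaining and 11.02, 11.64 and 11.6 in the lacking lines. Without LIF it was 12.88, 12.86, 12.53, 12.57 and 12.09 in the retaining and 11.38, 11.45 and 11.19 in the lacking lines. The classes overlapped with LIF, and without LIF all 3 lacking lines were below all 5 retaining lines. The rise was 1.71 ± 0.18 (log2, SE; 3.27-fold; limma adjusted p = 3.38e-05) in the retaining lines, and the lacking lines changed by -0.08 ± 0.24 (adjusted p = 0.926). The responses differed by -1.79 ± 0.30 (adjusted p = 0.00343), by -1.59 within the first title run (adjusted p = 0.013, with 1 lacking line) and by -1.04 within the second (adjusted p = 0.299). Slc2a3, which encodes the high-affinity transporter GLUT3, had a signal of 12.53 to 12.99 with LIF in all 8 lines. It did not pass on withdrawal in either class, and was lower in the lacking lines without LIF by 0.62 ± 0.14 (adjusted p = 0.0123; 0.0629 without the doubly deleted line).

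In the preparatory phase 6 of the 9 measured genes rose in the retaining lines and 1 fell, against 21.3% and 14.5% of all tested genes. The hexokinases, which phosphorylate glucose on entry, did not rise. Hk1 did not pass in any of the comparisons, and the Hk2 signal was lower without LIF in all 8 lines. Hk2 passed in the lacking lines (-0.55 ± 0.10; adjusted p = 0.0174), where the call was lost without the empty vector line (-0.51; adjusted p = 0.124) or the coiled-coil-deleted line (-0.5; adjusted p = 0.119). Its change in the retaining lines was -0.2 ± 0.08 (adjusted p = 0.0724), and -0.30 after centring (adjusted p = 0.0204).

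The 3 phosphofructokinase genes, whose product commits sugar to glycolysis, went different ways. Pfkm, the muscle-type subunit, had a signal of 7.33 to 7.79 with LIF and 9.14 to 9.43 without it in the retaining lines. In the lacking lines it went from 8.01, 8.52 and 8.55 to 8.81, 9.01 and 8.85. The lacking lines thus lay above all retaining lines with LIF and below them without it. It rose by 1.79 ± 0.10 (3.46-fold; adjusted p = 3.14e-07) in the retaining lines, and changed by 0.53 ± 0.13 (adjusted p = 0.0515) in the lacking lines. Pfkl, the liver-type subunit, rose by 0.95 ± 0.13 (adjusted p = 0.000199), from 9.42 to 9.78 up to 10.21 to 10.74, while the 3 lacking lines had 9.91 to 10.41 with LIF and 10.18 to 10.35 without. Pfkp, the platelet-type subunit, fell in the retaining lines by 0.62 on the log2 scale (adjusted p = 0.00183).

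Pfkp was higher in the lacking lines in both conditions. With LIF it was 10.89 to 11.14 in the 5 retaining lines and 11.89, 12.07 and 11.93 in the lacking lines, a difference of 0.94 ± 0.10 (1.93-fold; adjusted p = 0.00018). After withdrawal it was 10.45, 10.5, 10.51, 9.91 and 10.61 in the retaining lines and 11.72, 11.62 and 11.4 in the lacking ones, a difference of 1.18 ± 0.15 (2.27-fold; adjusted p = 0.000558). There was no overlap in either condition.

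Pfkfb3 makes the allosteric activator of phosphofructokinase, and it stood lower in the lacking lines throughout. With LIF the signal was 6.86, 6.68, 6.68, 6.75 and 6.7 in the retaining and 6.22, 6.2 and 5.96 in the lacking lines. The level without LIF was 8.5, 8.61, 8.36, 8.67 and 7.91 against 6.38, 6.77 and 6.38. It rose by 1.68 ± 0.11 (3.2-fold; adjusted p = 1.09e-06) in the retaining lines and changed by 0.38 ± 0.14 (adjusted p = 0.208) in the lacking lines. The gap between classes without LIF was -1.90 ± 0.17 (adjusted p = 6.93e-05). The difference of the responses was -1.63 within the first title run (adjusted p = 0.0106, with 1 lacking line) and -0.71 within the second (adjusted p = 0.359).

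The aldolase and triose phosphate isomerase genes, which split the hexose and interconvert its products, rose in the retaining lines. Aldoc went from 7.44, 7.31, 7.33, 7.51 and 7.78 to 8.78, 8.47, 8.25, 7.89 and 8, and in the lacking lines from 7.92, 8.1 and 8.35 to 7.58, 7.6 and 7.42. The order of the classes thus reversed, with no overlap in either condition, and the responses differed by -1.39 ± 0.26 (adjusted p = 0.006). Without LIF the Aldoc difference between classes no longer passed without the doubly deleted line (-0.69; adjusted p = 0.074). Aldoa, the aldolase of muscle and many other tissues, rose by 0.48 ± 0.10 (adjusted p = 0.00291). Tpi1 rose by 1.59 ± 0.20 (3.01-fold; adjusted p = 0.000109), from 9.63 to 10.6 up to 11.22 to 11.98. In the lacking lines Tpi1 went from 9.65, 10.07 and 10.24 to 10.83, 10.66 and 10.31, and lay below all retaining lines without LIF (-1.03 ± 0.18; adjusted p = 0.00329).

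In the pay-off phase Pgk1, Pgam1 and Pkm rose in the retaining lines, and Gapdh and Eno2 did not pass in any comparison. Gapdh, often used as a reference gene, had a signal of 13.27 to 13.71 on all 16 arrays, and its change in the retaining lines was 0.04 ± 0.09 (adjusted p = 0.744) and -0.06 after centring. Pkm, the pyruvate kinase of most proliferating cells, had a signal of 12.44, 12.07, 11.99, 12.37 and 12.33 with LIF in the retaining and 12.76, 12.95 and 12.86 in the lacking lines. Without LIF it was 13.02, 13, 12.97, 12.73 and 12.94 against 12.98, 12.97 and 12.88. The lacking lines were higher with LIF (0.62 ± 0.12; adjusted p = 0.00772), and without LIF the classes overlapped (0.01 ± 0.09; adjusted p = 0.949). The smaller Pkm response of the lacking lines (adjusted p = 0.0326) was lost without MBD3a, MBD3b, the coiled-coil-deleted or the doubly deleted line, with adjusted p of 0.0732, 0.0688, 0.123 and 0.115, and after centring (-0.51; adjusted p = 0.0534).

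Pgk1, phosphoglycerate kinase, had the same order of levels. Its signal was 11.62, 11.33, 11.46, 11.59 and 11.96 with LIF in the retaining and 12.11, 12.31 and 12.35 in the lacking lines, and 12.2 to 12.67 and 12.11 to 12.3 without LIF. The brightest probe set of Pgk1 carries an identifier of chromosome 12, while RefSeq places the gene on X, so it may take signal from a retrocopy. The probe set with an X identifier gave a rise of 0.90 ± 0.12 (adjusted p = 0.000133) in place of 0.81 ± 0.12 (adjusted p = 0.000364), and the same calls. Pgam1, phosphoglycerate mutase, was higher in the lacking lines with LIF by 0.36 ± 0.10 (adjusted p = 0.0316). That call and the rise of Pgam1 in the retaining lines (0.25 ± 0.08; adjusted p = 0.0232) were lost after centring, at adjusted p of 0.0887 and 0.125. The first was also lost without MBD3a, MBD3b, MBD3c, coiled-coil-deleted or doubly deleted cells, the second without EBRTcH3, MBD3a or MBD3b cells.

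Of the lactate dehydrogenase subunits, Ldha passed on withdrawal in the retaining lines and Ldhb in the lacking lines. Ldha favours the reduction of pyruvate to lactate. Its signal with LIF was 11.51, 11.43, 11.46, 11.75 and 11.94 in the retaining and 12.08, 12.57 and 12.33 in the lacking lines. After withdrawal it was 12.69, 12.67, 12.71, 12.46 and 12.48 against 12.55, 12.55 and 12.39, so classes that did not overlap with LIF overlapped without it. The rise was 0.98 ± 0.12 (1.98-fold; adjusted p = 9.56e-05) in the retaining lines. The lacking lines were higher with LIF by 0.71 ± 0.15 (1.63-fold; adjusted p = 0.00935), a call lost without the coiled-coil-deleted line (0.59; adjusted p = 0.0539). The difference of the Ldha responses (-0.81 ± 0.20; adjusted p = 0.0231) was lost without MBD3a, MBD3b, coiled-coil-deleted or doubly deleted cells, at adjusted p of 0.0532, 0.055, 0.109 and 0.0973. Ldhb, the heart-type subunit, rose in the lacking lines from 8.51, 8.36 and 9.33 to 9.81, 9.8 and 9.67 (1.03 ± 0.19; adjusted p = 0.0179), a call lost without the empty vector line (0.89; adjusted p = 0.147) or the coiled-coil-deleted line (0.82; adjusted p = 0.127). In the retaining lines its change was 0.32 ± 0.15 (adjusted p = 0.118), with 4 of the 5 lines above 0, and the responses did not differ at the threshold (adjusted p = 0.085). A response of Ldhb particular to the lacking lines was thus not shown. Over all 8 lines both subunits passed as higher, Ldhb not without the MBD3c line (limma adjusted p = 0.0506).

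**Figure D2:**
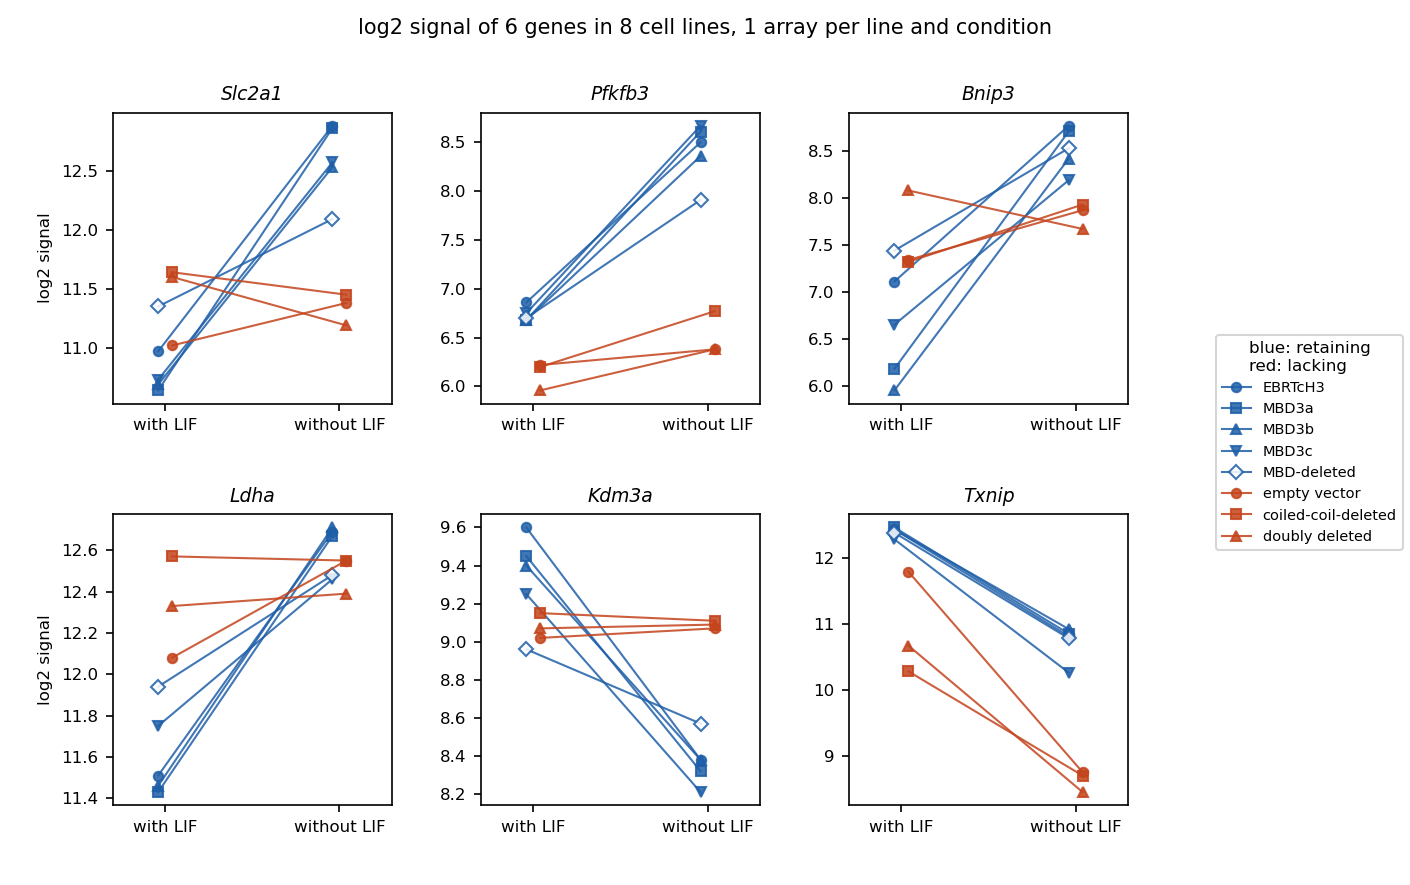
log2 signal of 6 genes with and without LIF (x axis), 1 point per array, with a line joining the arrays of each cell line; blue marks retaining and red lacking lines. Slc2a1, Pfkfb3 and Bnip3 end lower in the red lines, Ldha starts higher in them and ends at overlapping levels, Kdm3a is lower without LIF in the blue lines and level in the red ones, and Txnip is lower without LIF in all 8.

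Of the 13 hypoxia-response genes 9 rose and 2 fell in the retaining lines, against 21.3% and 14.5% of all tested genes. None of the 13 passed by limma in the lacking lines, and 1, Vegfa, had an unadjusted p under 0.05 there. With 2.93% of all tested genes passing there, that count is no result about these genes. The mitochondrial group was led by Bnip3, a mitophagy receptor. Its signal with LIF was 7.11, 6.18, 5.95, 6.65 and 7.44 in the retaining and 7.34, 7.32 and 8.08 in the lacking lines. The level without LIF was 8.77, 8.71, 8.42, 8.19 and 8.53 against 7.87, 7.93 and 7.67. The rise was 1.86 ± 0.21 (3.62-fold; adjusted p = 5.13e-05) in the retaining lines and the change was 0.24 ± 0.27 (adjusted p = 0.762) in the lacking lines. The responses differed by -1.62 ± 0.34 (adjusted p = 0.0121), and by -1.29 (adjusted p = 0.0656) without the doubly deleted line, the one line with a lower Bnip3 signal without LIF. With the lines as a random block the Bnip3 difference between classes without LIF (-0.70 ± 0.13; adjusted p = 0.00459) did not pass (adjusted p = 0.0847). Its relative Bnip3l rose by 0.52 ± 0.10 (adjusted p = 0.00145), and was higher in the lacking lines with LIF by 0.68 ± 0.14 (adjusted p = 0.00727). Pdk1, which restrains pyruvate dehydrogenase, was higher in the lacking lines with LIF, at 10.39, 10.23 and 10.54 against 9.59 to 9.86 (0.66 ± 0.11; adjusted p = 0.00241). Its rise in the retaining lines was at the threshold (0.32 ± 0.12; adjusted p = 0.0493) and was lost after centring (0.22; adjusted p = 0.159) and without any of MBD3a, MBD3b, MBD-deleted, empty vector or coiled-coil-deleted cells.

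The prolyl hydroxylases that act on hypoxia-inducible factors are themselves hypoxia targets. Egln1 went from 7.41, 7.66, 7.48, 7.84 and 7.9 to 8.62, 8.74, 8.35, 8.37 and 8.19 in the retaining lines, and from 8.2, 8.11 and 8.22 to 8.02, 7.87 and 7.84 in the lacking lines. Every retaining line rose and every lacking line was lower without LIF, and the order of the classes reversed with no overlap in either condition. The responses differed by -1.06 ± 0.20 (adjusted p = 0.00689). The Egln1 difference between classes passed with LIF (0.52 ± 0.13; adjusted p = 0.0206) and without (-0.54 ± 0.13; adjusted p = 0.0122), and each was lost without the coiled-coil-deleted line (adjusted p = 0.0555 and 0.0507) or the doubly deleted line (adjusted p = 0.0771 and 0.0584), the first also without MBD3b (adjusted p = 0.0508). Egln3 rose by 0.63 ± 0.14 (adjusted p = 0.00359) in the retaining lines. Its difference of responses (-0.84 ± 0.22; adjusted p = 0.031) was lost without EBRTcH3, MBD3a, MBD3b, coiled-coil-deleted or doubly deleted cells, at adjusted p of 0.053 to 0.128.

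The collagen prolyl hydroxylase subunits P4ha1 and P4ha2 rose in the retaining lines, by 0.79 ± 0.16 (adjusted p = 0.00271) and 0.92 ± 0.20 (adjusted p = 0.00369). In both genes 4 retaining lines were higher without LIF, by 0.77 to 1.24 and by 1.1 to 1.31, while MBD-deleted cells changed by -0.11 and -0.12. Without LIF, P4ha2 was 7.67, 7.68, 7.47, 7.26 and 6.8 in the retaining and 6.37, 6.72 and 6.08 in the lacking lines, which were lower by 0.99 on the log2 scale (adjusted p = 0.00829) with no overlap. Differences of the P4ha1 and P4ha2 responses did not pass (adjusted p = 0.0986 and 0.14), and passed at 0.00198 and 0.00693 without the MBD-deleted line.

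Ankrd37, an ankyrin-repeat gene known as a direct target of hypoxia-inducible factor, had a signal of 4.82, 6.18, 5.02, 5.58 and 6.54 with LIF in the retaining and 6.58, 7.08 and 6.96 in the lacking lines. Without LIF it was 6.27, 7.01, 6.82, 6.7 and 6.41 against 6.59, 6.42 and 6.48. It rose by 1.01 ± 0.22 (adjusted p = 0.00374) in the retaining lines, where the change in MBD-deleted cells was -0.13. Both the higher level in lacking lines with LIF (1.25 ± 0.34; adjusted p = 0.0339) and the smaller response (-1.39 ± 0.36; adjusted p = 0.0287) were lost without any of EBRTcH3, MBD3b, MBD3c, coiled-coil-deleted or doubly deleted cells, at adjusted p of 0.0556 to 0.126. Ndrg1, a stress-response gene, rose by 1.16 ± 0.21 (adjusted p = 0.00131), with line responses from 0.37 in MBD-deleted to 2.04 in MBD3a cells. The differences of Ndrg1 between classes did not pass.

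Not all hypoxia targets rose. Vegfa, the endothelial growth factor, was lower without LIF in all 8 lines, by 0.22 to 0.93 on the log2 scale in the retaining lines (-0.58 ± 0.13; adjusted p = 0.00372). The change in the lacking lines was -0.62 ± 0.16 (adjusted p = 0.0702). Kdm3a, a histone demethylase, was 9.6, 9.45, 9.4, 9.25 and 8.96 with LIF in the retaining lines and 8.38, 8.32, 8.38, 8.21 and 8.57 without it. In the lacking lines it was 9.02, 9.15 and 9.07 and then 9.07, 9.11 and 9.09. The retaining lines fell by 0.96 on the log2 scale (1.95-fold; adjusted p = 5.77e-05), the lacking lines changed by 0.01 ± 0.14 (adjusted p = 0.988), and the difference was 0.97 ± 0.18 (adjusted p = 0.00621). Within the title runs that difference was 1.15 (adjusted p = 0.0193) and 0.38 (adjusted p = 0.521). Mxi1, a Max partner that opposes Myc, did not pass in any comparison.

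Ddit4, an inhibitor of mTOR signalling induced by hypoxia and other stresses, was lower in the lacking lines in both conditions. With LIF it was 9.66, 9.29, 9.45, 9.52 and 10.11 in the retaining and 8.74, 7.76 and 8.58 in the lacking lines, a difference of -1.25 ± 0.23 (adjusted p = 0.00467). Within the title runs that difference was -0.74 (adjusted p = 0.0601) and -1.94 (adjusted p = 0.245). After withdrawal it was 9.59, 9.3, 8.96, 9.15 and 9.07 against 8.44, 8.56 and 7.99, a difference of -0.88 ± 0.16 (adjusted p = 0.0039), and -0.81 (adjusted p = 0.0817) and -0.8 (adjusted p = 0.287) within the title runs. It did not pass on withdrawal in either class.

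Txnip, whose promoter holds the paired E-box printed earlier, was lower without LIF in every line. With LIF it was 12.44, 12.47, 12.44, 12.29 and 12.39 in the retaining lines, a range of 0.18, and 11.8, 10.29 and 10.68 in the lacking lines. The level without LIF was 10.82, 10.86, 10.93, 10.27 and 10.79 against 8.76, 8.71 and 8.46. The lacking lines were thus below the retaining lines in both conditions, and the coiled-coil-deleted and doubly deleted lines with LIF lay within the range of the retaining lines without it. The fall was 1.67 on the log2 scale in the retaining lines (3.19-fold; adjusted p = 1.78e-05) and 2.28 in the lacking lines (4.86-fold; adjusted p = 0.000396). The responses did not differ at the threshold (-0.61 ± 0.27; adjusted p = 0.172), though they did without the coiled-coil-deleted line (-0.96; adjusted p = 0.0372). The difference between classes was -1.48 ± 0.26 with LIF (2.79-fold; adjusted p = 0.0035) and -2.09 ± 0.15 without (4.26-fold; adjusted p = 1.67e-05). Within the title runs it was -0.61 (adjusted p = 0.0563) and -1.91 (adjusted p = 0.213) with LIF, and -1.96 (adjusted p = 0.00662) and -2.21 (adjusted p = 0.135) without.

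Compared between the classes, 12 of the 32 genes were higher and 3 lower in the lacking lines with LIF, where 7.65% and 6.48% of all tested genes were (14.1% in either direction). The 12 were Pfkl, Pfkm, Pfkp, Aldoc, Pgk1, Pgam1, Pkm, Ldha, Pdk1, Bnip3l, Ankrd37 and Egln1, and the 3 were Pfkfb3, Ddit4 and Txnip. Over all genes 1750 were higher and 1483 lower as deposited, and 1310 and 1916 after centring, where 11 of the 32 were higher and 4 lower. Within the first title run, with the empty vector line alone as the lacking class, fewer of the 32 passed than over all lines, in either condition. That fit holds no spread between lacking lines, so no count is read from it. Within the second run 0 of the 32 passed in either condition, where limma gave 3210 and 4629 of all genes an unadjusted p under 0.05 and no adjusted call. Without LIF 2 were higher (Pfkp, Kdm3a) and 12 lower, against 8.55% and 12.4% of all tested genes (20.9% in either direction). The 12 lower were Slc2a1, Slc2a3, Hk2, Pfkm, Pfkfb3, Aldoc, Tpi1, Bnip3, Egln1, P4ha2, Ddit4 and Txnip, of which Pfkm was lost without the empty vector (adjusted p = 0.0526) or the doubly deleted line (adjusted p = 0.0506). With LIF, all 3 lacking lines were above all 5 retaining lines for 14 of the 32 genes and below them for 3, against 11.8% and 8.43% of all tested genes. Without LIF they were above for 3 and below for 12, against 11.9% and 14.7%. These comparisons share arrays with the responses to withdrawal and are not independent of them.

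**Figure D3:**
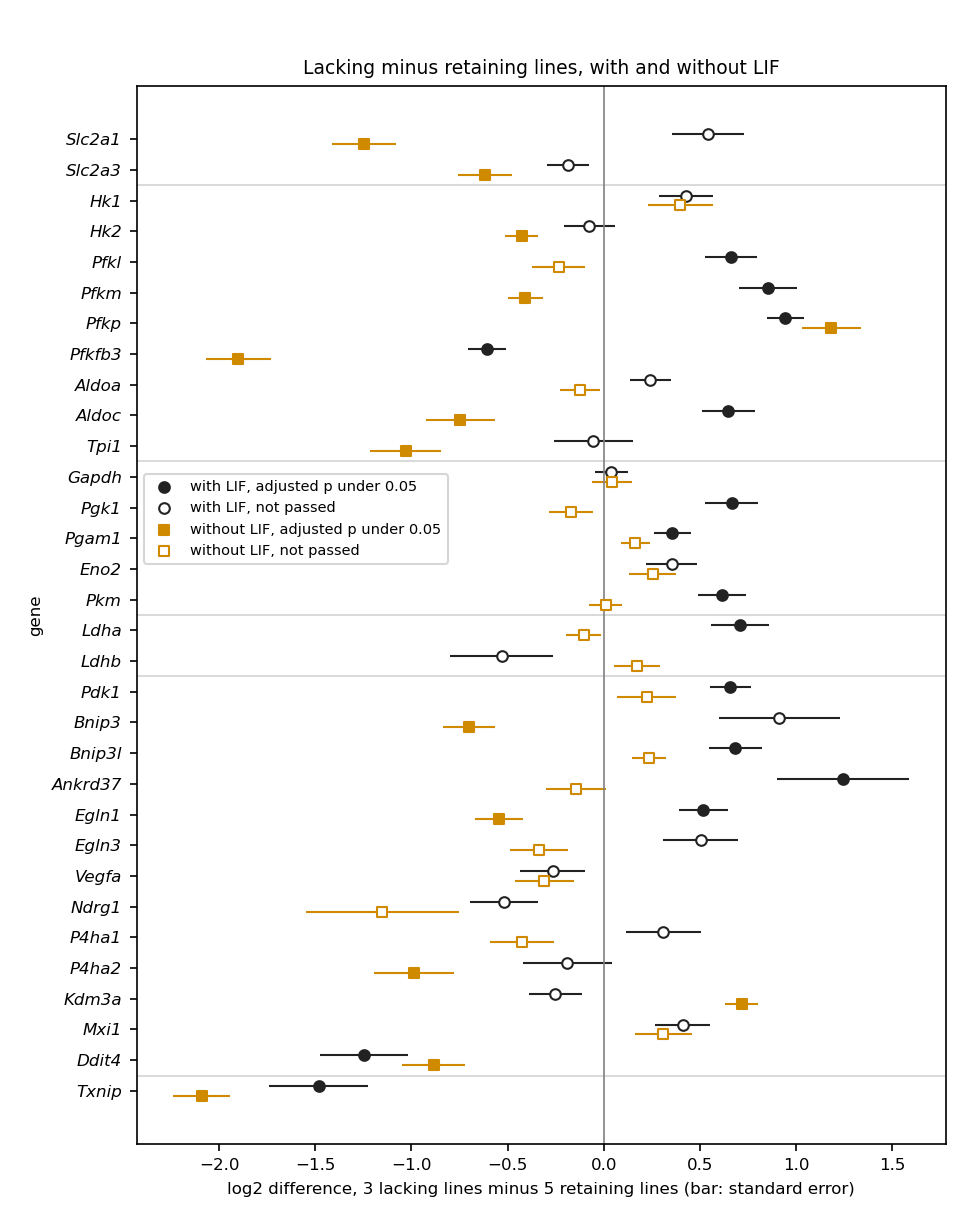
Difference in log2 signal between the 3 lacking and the 5 retaining lines for each of the 32 genes (rows), with LIF (circles) and without (squares), with bars of 1 standard error; filled points passed at a limma adjusted p under 0.05. Ldha, Pkm and Pgk1 are right of 0 with LIF and near 0 without, Slc2a1, Pfkfb3 and Tpi1 are left of 0 without LIF, and Txnip is left of 0 in both conditions.

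Neighbouring pathways, taken from lists, were checked for how they moved. Among 25 other genes of glycolysis and lactate transport 8 rose and 2 fell in the retaining lines, where 21.3% and 14.5% of all tested genes did. Their median change was 0.09 there, against 0.04 for all tested genes, and 0.04 in the lacking lines. Slc16a3, the lactate exporter MCT4 and a hypoxia target, rose most: it went from 7.09, 6.88, 6.8, 7.32 and 7.98 to 10.32, 9.95, 9.94, 9.65 and 9.31. In the lacking lines Slc16a3 was 8.36, 9.05 and 8.96 with LIF and 9.67, 9.64 and 9.4 without. The rise in the retaining lines was 2.62 ± 0.24 (6.15-fold; adjusted p = 1.27e-05), and the lacking lines were higher with LIF by 1.58 ± 0.25 (2.98-fold; adjusted p = 0.00218). Of 39 other hypoxia-inducible genes 19 rose and 6 fell in the retaining lines, against 21.3% and 14.5% of all tested genes. The largest change was that of Anxa2 (3.43 ± 0.27; adjusted p = 4.35e-06), a membrane-binding annexin. Stc2, a secreted glycoprotein, fell in both classes, by 1.29 (adjusted p = 1.36e-05) and 0.75 (adjusted p = 0.0286) on the log2 scale, the second call lost without the empty vector or the doubly deleted line (adjusted p = 0.19 and 0.154).

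The regulators of the pathway did not move as a group: 4 of 14 rose and 5 fell in the retaining lines, against 21.3% and 14.5% of all tested genes. Hif1a, the main oxygen-regulated subunit, fell there by 0.3 on the log2 scale (adjusted p = 0.0296), a call lost without EBRTcH3, MBD3a, MBD3b or MBD3c cells at adjusted p of 0.0747 to 0.0976. Arnt, its partner, fell by 0.59 (adjusted p = 0.000378) and was lower in the lacking lines with LIF, at 9.11, 9.07 and 8.91 against 9.62 to 10.04 (-0.82 ± 0.12; adjusted p = 0.00128). Epas1, which encodes the related subunit HIF-2 alpha, did not pass on withdrawal but was higher in the lacking lines in both conditions. Its signal was 7.43, 7.39, 7.26, 6.97 and 6.66 with LIF in the retaining and 8.31, 8.74 and 8.27 in the lacking lines (1.3 ± 0.18; adjusted p = 0.0011), and the difference without LIF was 1.59 ± 0.17 (adjusted p = 0.000217). Cited2, which competes with hypoxia-inducible factors for a coactivator, rose in the retaining lines by 1.94 ± 0.11 (adjusted p = 5.18e-07) and changed by 0.03 ± 0.15 (adjusted p = 0.957) in the lacking lines. Vhl fell by 0.34 on the log2 scale (adjusted p = 0.0279) and Egln2 did not pass.

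**Figure D4:**
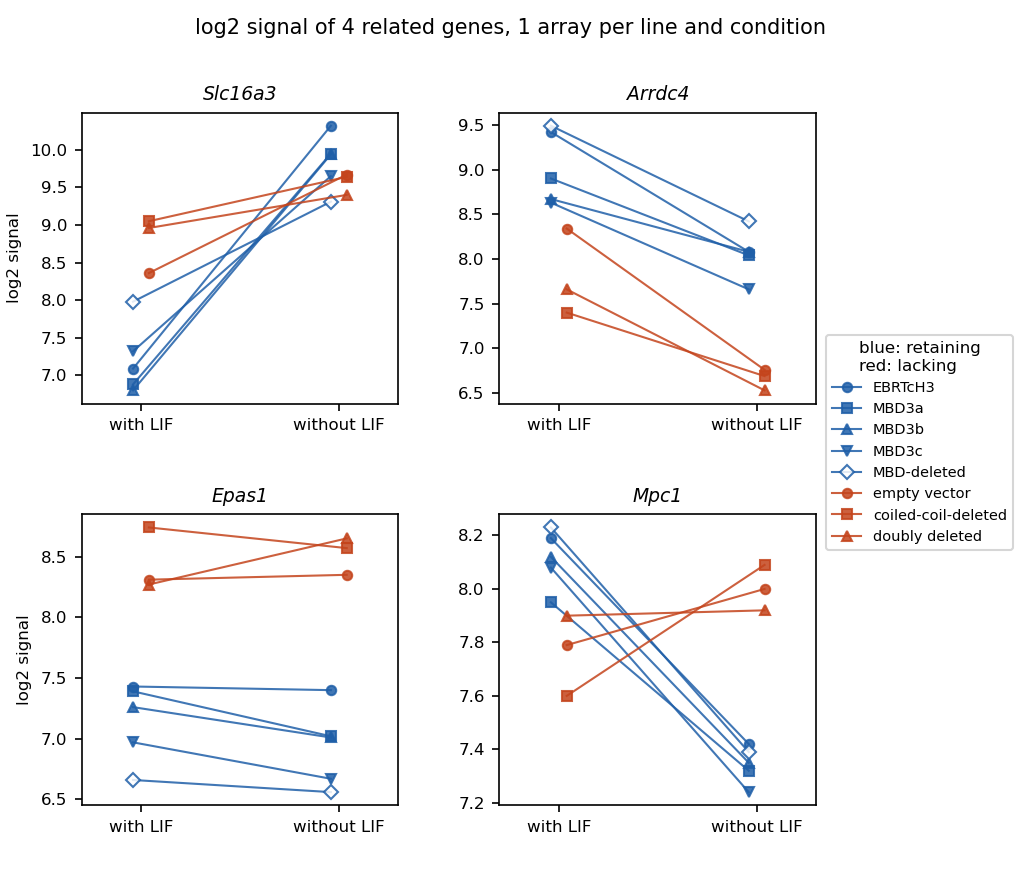
log2 signal of Slc16a3, Arrdc4, Epas1 and Mpc1 with and without LIF (x axis), 1 point per array, lines joining the arrays of a cell line, blue for retaining and red for lacking lines. Slc16a3 and Epas1 are higher in the red lines with LIF, Arrdc4 is lower in the red lines in both conditions, and Mpc1 falls in the blue lines.

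Arrdc4, the closest relative of Txnip and another MondoA target, was also lower in the lacking lines and lower without LIF. It was 9.42, 8.9, 8.67, 8.63 and 9.49 with LIF in the retaining and 8.34, 7.4 and 7.66 in the lacking lines, and 8.08, 8.04, 8.08, 7.66 and 8.42 against 6.76, 6.69 and 6.53 without. Arrdc4 fell by 0.97 (adjusted p = 0.00016) and 1.14 (adjusted p = 0.00633) on the log2 scale in the 2 classes, and the second call was lost without the empty vector line (-0.92; adjusted p = 0.0639). It was lower in the lacking lines by 1.22 with LIF and 1.40 without on the same scale (adjusted p = 0.0081 and 0.000156). Myc rose in the retaining lines by 1.28 ± 0.10 (adjusted p = 4.85e-06). Among 12 genes of pyruvate entry into mitochondria 5 fell and 1 rose in the retaining lines, against 14.5% and 21.3% of all tested genes. Mpc1, a subunit of the mitochondrial pyruvate carrier, went from 7.95 to 8.23 down to 7.24 to 7.42 in the retaining lines, and from 7.79, 7.6 and 7.9 to 8, 8.09 and 7.92 in the lacking lines. The responses of Mpc1 differed by 1.01 ± 0.14 (adjusted p = 0.00108). Of 19 genes of the tricarboxylic acid cycle 6 rose and 2 fell in the retaining lines, and of 7 genes of the pentose phosphate pathway 3 rose and 1 fell. Over all tested genes 21.3% rose and 14.5% fell, and counts this small are no result about these pathways.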

How the data were processed

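Total RNA was labelled with a whole-transcript kit and hybridised to 16 Affymetrix arrays, per the labels' protocols. The deposited values are log2 signals made by RMA in affy, as the submitters' processing notes have it; no source used here gives versions, the probe set definition or hybridisation batches. Of 65770 probe sets, 27 held no value, and 30439 name a single gene. Symbols were updated by Entrez identifier through RefSeq GRCm38.p6, and the probe set of highest mean was kept for each of 30102 genes. Genes were tested (22872) if their signal passed the 40th percentile of an array's probe sets on 3 or more arrays. limma 3.58.1 in R 4.3.3 gave changes, standard errors (SE) and p-values, adjusted by the Benjamini-Hochberg method over all tested genes and called under 0.05. The script was tested on simulated data.

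Responses to LIF withdrawal were fitted over all 16 arrays with the cell line as a block, since the labels give each line an array in both conditions; deviations of paired arrays from their group means correlated at -0.052 to 0.28. Classes were compared within each condition over 8 arrays. There were 6 comparisons, the last being withdrawal over all lines. Precision is limited by how few arrays there are, and p-values measure the spread between lines, which differ in construct. All 32 measured genes are named, with Mbd3, the 3 largest passing changes of each neighbouring list (of which part is given), a set of regulators, and the largest change of marker lists. The genes and lists were chosen with earlier results of these data known. Alternatives changed the filter, scaling, probe set, weights, block and lines; the Pgk1 probe set alternative was chosen after seeing the data.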

Additional observations from a re-analysis of the deposited data

Results flagged for a closer look

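Among 96 groups of 5 retaining lines (32 genes, with LIF, without LIF and the response), 11 held a highest or lowest line whose gap to the next, over the range of the group, passed Dixon's critical value. That value is set so that chance flags about 1 in 20 independent groups. These groups are not independent, since each response is the difference of 2 levels also examined, so the number flagged was not tested against chance. In MBD-deleted cells these were the Slc2a1 response (0.74, the lowest), the P4ha2 response (-0.12, the lowest), the Kdm3a response (-0.39, the highest) and the Hk1 signal without LIF (7.6, the highest). In MBD3c cells they were the Pfkp signal without LIF (9.91) and response (-1.23), the Gapdh signal without LIF (13.27) and response (-0.29), the Pkm signal without LIF (12.73), and the Txnip signal without LIF (10.27) and response (-2.02), each the lowest.

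For 13 genes the lacking and the retaining lines responded differently to withdrawal of LIF (limma, lacking minus retaining, log2). The differences were -1.79 for Slc2a1, -0.89 for Pfkl, -1.26 for Pfkm, -1.29 for Pfkfb3, -1.39 for Aldoc, -0.84 for Pgk1, -0.6 for Pkm and -0.81 for Ldha. They were -1.62 for Bnip3, -1.39 for Ankrd37, -1.06 for Egln1, -0.84 for Egln3 and 0.97 for Kdm3a.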

How the results depend on the processing

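Counts are of the 32 genes. In the retaining lines (20 higher, 4 lower) the counts without single lines were 18 to 21 and 4. Within the second title run 0 passed in either direction in 5 of the comparisons, and over all lines 0 rose and 1 fell. Its MBD-deleted line gave Ankrd37 (-0.13), P4ha1 (-0.11) and P4ha2 (-0.12) the opposite sign. In the lacking lines (1 higher, 2 lower) 2 were higher with the 60th percentile filter, centring, quantile normalization or the intensity trend and 3 with array weights or the title run as a covariate; within the first run 0 were higher and 1 lower, and without single lines 0 to 2 were higher and 1 to 3 lower. For the difference of the responses (1 higher, 12 lower) centring or array weights gave 2 higher, the run covariate 7 lower and the first run 3 lower (Txnip among them, not one of the 12), and without single lines 1 to 2 were higher and 5 to 16 lower. With LIF (12 higher, 3 lower) the first run gave fewer of each, and without single lines 8 to 16 were higher and 3 to 4 lower. Without LIF (2 higher, 12 lower) the first run gave fewer lower, and without single lines 2 to 4 were higher and 8 to 14 lower. Over all lines (15 higher, 5 lower) 8 to 17 were higher and 4 to 6 lower without single lines. Without the replicate block of the lines, 20 rose and 4 fell in the retaining lines, 1 and 2 passed in the lacking lines, 13 had a lower and 1 a higher response in the lacking lines (Tpi1 added, -0.97; adjusted p = 0.0399), and 13 and 4 over all lines. A random block by duplicateCorrelation over both conditions gave 13 higher and 3 lower with LIF (Bnip3 added, adjusted p = 0.024) and 2 higher and 12 lower without (Bnip3 lost, adjusted p = 0.0847; Ndrg1 added, adjusted p = 0.0189). The filter, probe set and X-linked Pgk1 alternatives changed the other counts by less than 1.5 times. The causes were not tested. Over 20 alternatives each, the 24 calls in the retaining lines were kept in 442 of 480 refits, the 13 on the difference in 206 of 260, the 15 with LIF in 253 of 300 and the 14 without LIF in 249 of 280. The lowest signal of the 32 genes, 4.82 for Ankrd37, lay within the range of the array medians (4.72 to 4.85).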
